A study of Danio rerio with 13 samples.

Results

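Of the 32105 gene identifiers counted in zebrafish livers, 5 belong to enzymes that set the level of retinoic acid at either end of its life. ALDH1A2 (ENSDARG00000053493) and a pair of genes that both carry the symbol RDH10 (ENSDARG00000012369 and ENSDARG00000058730) make it, and CYP26A1 (ENSDARG00000033999) and CYP26B1 (ENSDARG00000077121) break it down. They were picked by identifier for what their products do, with earlier results of these data known. All 5 passed the filter on low counts and were among the 16376 genes tested. CYP26A1 passed it only through the 3 livers where it was high. Livers came from 13 male zebrafish of the AB strain, labelled as 3 months old, namely 3 tert-/-, 5 tert+/- and 5 tert+/+ fish. The mutation is the hu3430 allele of tert, the gene for the catalytic subunit of telomerase, and every cell of a mutant fish carries it. Each library holds the RNA of all cells of 1 liver sample, so fewer cells of a type and less RNA per cell cannot be told apart.

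Retinoic acid is the signalling form of vitamin A, and cells make it in consecutive oxidations. RDH10 turns retinol into retinaldehyde, ALDH1A2 turns retinaldehyde into retinoic acid in a step that cannot be reversed, and the CYP26 enzymes oxidise retinoic acid to forms that are cleared. Retinoic acid acts by binding nuclear receptors (RAR, paired with RXR), and CYP26A1 is itself a well-known target of these receptors. Much of the vitamin A of the body is stored in the liver, in stellate cells, while intestinal cells take it up from food and also make retinoic acid. In mammals CYP26A1 is known as a gene of the adult liver.

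The libraries held 28590922 to 33745587 counts in tert-/-, 21273777 to 37309651 in tert+/- and 17801374 to 34956035 in tert+/+ livers. In 3 libraries, 1 of each genotype, genes that mark the intestine took over 1% of the counts. These intestine-marked livers are tert-/- liver 1 (6.08%), tert+/- liver 3 (4.35%) and tert+/+ liver 5 (6.38%), against 0.237% to 0.535% in the other 10. Hepatocyte genes took 3.90% to 5.77% of their counts, against 11.6% to 31.3% in the other 10. In all 3, 24 of 28 intestine genes were higher and 1 lower than in each other liver, and 24 of 26 hepatocyte genes were lower and 0 higher. Of all genes tested, 16.6% were higher and 12.3% lower in this way. The livers were marked by the sum of the same intestine list, so its count largely follows from their choice. A list of heart muscle genes reached 1.08% in tert+/- liver 5 and 1.31% in tert+/+ liver 1, against 0.00357% or less elsewhere, and these are called heart-marked. Both splits were seen in the data and are no groups of the study, so values across them are given with no test. tert itself (TERT, ENSDARG00000042637) ran between 3.96 and 5.68 CPM in tert-/-, 2.68 and 9.80 CPM in tert+/-, and 0.484 and 11.4 CPM in tert+/+ livers, where CPM are counts scaled by library size after TMM normalisation. A nonsense allele need not lower its transcript, so these levels do not check the genotypes. Mitochondrially encoded genes took 54.7% of the counts of tert+/+ liver 4, 40.3% of tert+/- liver 3 and 32.8% of tert-/- liver 2.

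The 5 genes fell into 3 patterns across livers. ALDH1A2 and CYP26A1 were highest in the 3 intestine-marked livers of whichever genotype, RDH10 ENSDARG00000058730 was lowest in them, and RDH10 ENSDARG00000012369 and CYP26B1 overlapped between them and the other livers. For CYP26B1 the overlap came only from tert+/+ liver 5, and its mean was lower in the intestine-marked livers. Of the genes tested, 16.6% were higher in all 3 intestine-marked livers than in each of the other 10, and 12.3% were lower, so positions like those of the first 3 genes were common. No genotype separated any of the 5 genes, in that tert-/- and tert+/- livers overlapped the tert+/+ range in all of them. Of all genes tested, 0.263% lay higher and 0.25% lower in every tert-/- than in every tert+/+ liver, and 0.0916% higher and 0.116% lower in every tert+/- liver.

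**Figure D1:**
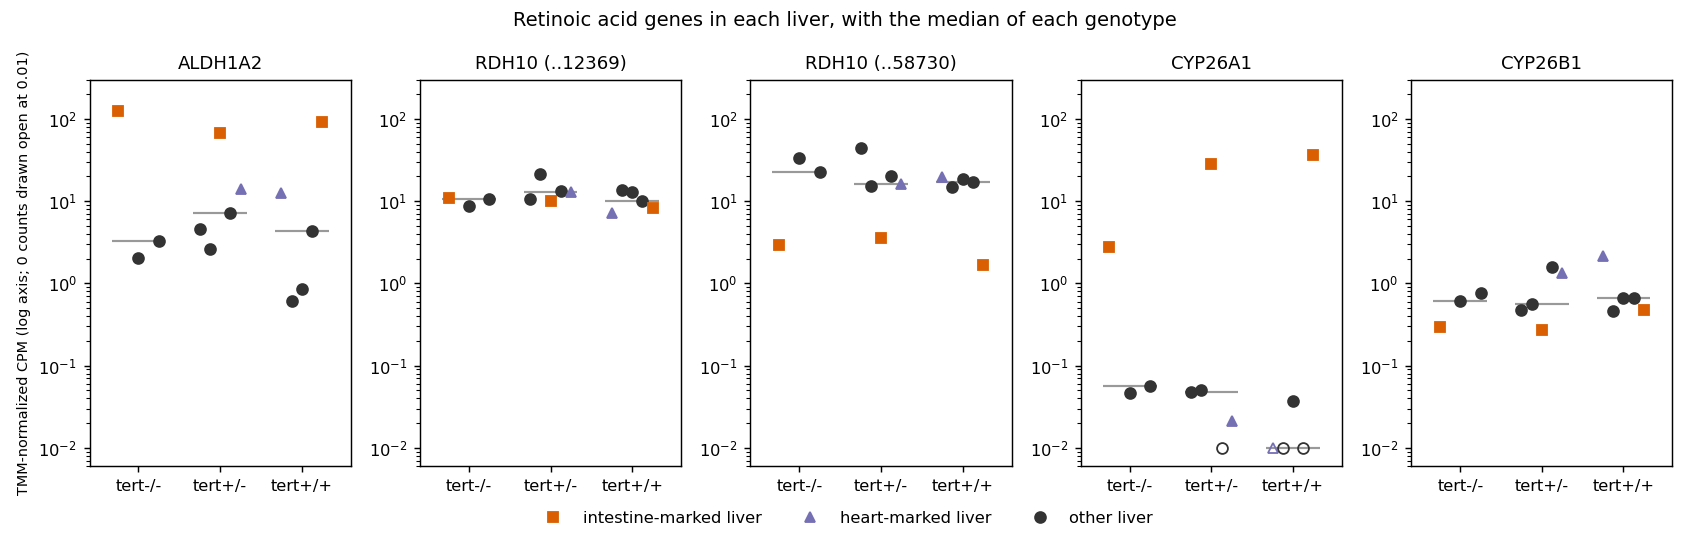
TMM-normalised CPM of each gene in each liver, on a log axis, with 1 point per liver and a grey line at the median of each genotype. A liver with 0 counts is drawn open at 0.01, and so is a median of 0. The orange squares of the intestine-marked livers lie at 67.5 to 124 CPM for ALDH1A2 and at 1.69 to 3.54 CPM for RDH10 ENSDARG00000058730, apart from all other livers in both.

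ALDH1A2, whose product makes retinoic acid, had 124, 2.05 and 3.33 CPM in tert-/- livers 1 to 3. It had 4.56, 2.63, 67.5, 7.20 and 14.2 CPM in tert+/- livers 1 to 5, and 12.6, 0.619, 0.860, 4.32 and 91.2 CPM in tert+/+ livers 1 to 5. The highest liver of each genotype was the intestine-marked one, and the rest of the 3 genotypes covered one another. Within a genotype the intestine-marked liver stood 46.0-fold above the mean of the others in tert-/-, 9.45-fold in tert+/- and 19.9-fold in tert+/+. Over all genotypes the mean was 94.1 CPM in the 3 intestine-marked and 5.23 CPM in the other 10 livers, an 18-fold ratio, and the lowest intestine-marked liver lay 4.76-fold above the highest other. Fibroblast and smooth muscle markers were also higher there, with 0.0670% to 0.101% of the counts in the intestine-marked and 0.00762% to 0.0328% in the other livers. Of their 17 genes 7 were higher and 1 lower in all 3, against 16.6% and 12.3% of all genes tested. The part of intestine and of these markers in the level of ALDH1A2 was not tested. The ALDH1A2 counts behind these values were 1509 to 5451 in the intestine-marked and 23 to 676 in the other livers. In tert+/+ livers 2 and 3, with 23 counts each, the 95% Poisson intervals ran from 0.392 to 0.929 and from 0.545 to 1.29 CPM. These intervals, like the others given here, cover counting error only and not the spread between fish. Copies made by PCR are not independent molecules, so the intervals may be too narrow even for that error.

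Among the 10 livers without the intestine markers, ALDH1A2 was highest in the pair with heart muscle genes, at 14.2 CPM in tert+/- liver 5 and 12.6 CPM in tert+/+ liver 1, against 0.619 to 7.20 CPM in the remaining 8. The mean of the heart-marked pair was 4.19-fold that of the 8, and 10.5% of the genes tested were higher in both heart-marked livers than in each of the 8. Other transcripts were high in the same pair. HAND2, a transcription factor of heart and stellate cells, stood at 22.3 and 25.1 CPM in them and at 0.927 to 6.33 CPM in the other 11 livers. It belongs to the list of stellate cell markers, of which 1 of 8 genes was higher in both. TBX18, a factor of the outer layer of the heart, stood at 1.26 and 0.921 CPM there, against 0.152 CPM or less in the other 11 livers. The list of mesothelium markers, without ALDH1A2 itself, took 0.0129% and 0.0130% of the counts in the heart-marked livers and 0.00162% to 0.00529% in the remaining 8. Of its 7 genes 3 were higher in both. The list took 0.0122%, 0.00984% and 0.00521% in the tert-/-, tert+/- and tert+/+ liver with intestine markers. A high share was thus not particular to the heart-marked pair, though the tert+/+ value lay within the range of the remaining 8. The stellate cell list took 0.00597% to 0.00977% in the intestine-marked and 0.00730% to 0.00756% in the heart-marked livers, against 0.00254% to 0.00522% in the remaining 8. Of its 8 genes 1 was higher and 2 were lower in all 3 intestine-marked livers than in each other liver. Endothelium markers took 0.0199% to 0.0222% in the heart-marked livers, against 0.00576% to 0.0101% in the remaining 8 and 0.00270% to 0.00479% in the intestine-marked. Their part in the level of ALDH1A2 was not tested.

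**Figure D2:**
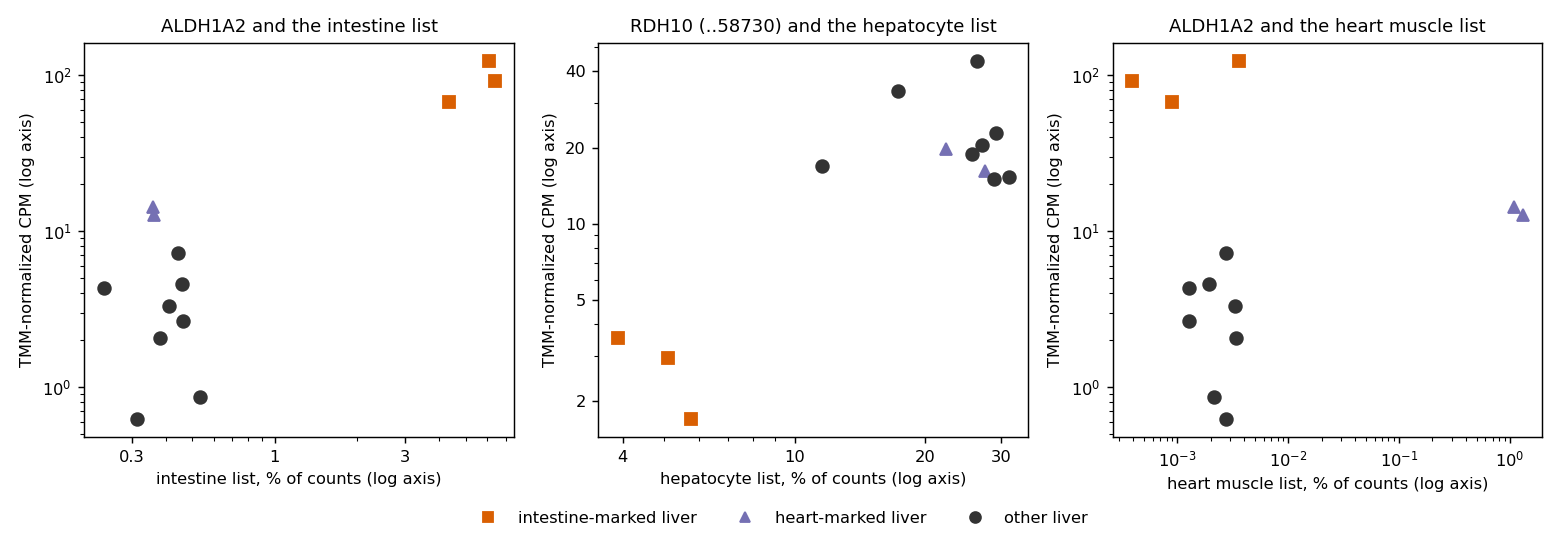
TMM-normalised CPM of ALDH1A2 or RDH10 ENSDARG00000058730 against the share of counts of a marker list, with 1 point per liver and log scales on all axes. ALDH1A2 was high at both a high intestine share and a high heart muscle share, while RDH10 ENSDARG00000058730 stood at 15.0 CPM or more in each of the 10 livers with a hepatocyte share of 11.6% or more.

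No difference between genotypes passed the test for ALDH1A2, and its errors were wide. Set against tert+/+ livers, edgeR gave it a log2 fold change (with its standard error, SE) of 0.97 (SE 1.64) in tert-/- and -0.19 (SE 1.45) in tert+/- livers, with adjusted p-values of 1 and 0.9999 by its quasi-likelihood test. In both comparisons edgeR called 0 of 16376 genes, a background of 0%, with 189 genes in tert-/- and 218 in tert+/- at an unadjusted p under 0.05. DESeq2 called 3 genes in tert-/- and 0 in tert+/-. Both signs of ALDH1A2 turned with the intestine-marked livers left out, to -0.78 (SE 1.12) in tert-/- and 0.59 (SE 0.88) in tert+/-. Single livers also moved both values. The tert-/- value turned to -3.03 without tert-/- liver 1, and it was 3.23 without tert+/+ liver 5. The tert+/- value turned to 2.07 without tert+/+ liver 5, and it was -1.64 without tert+/- liver 3.

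The pair of RDH10 genes, which supply retinaldehyde to ALDH1A2, behaved unlike each other. ENSDARG00000012369 had 11, 8.66 and 10.6 CPM in tert-/- livers 1 to 3, then 10.6, 21.2, 10.2, 13.3 and 12.8 CPM in tert+/- livers 1 to 5, and 7.09, 13.8, 13.0, 10.2 and 8.37 CPM in tert+/+ livers 1 to 5. Its level lay between 7.09 and 21.2 CPM over all 13 livers, the smallest ratio of highest to lowest among the 5 genes, and only tert+/- liver 2 stood away from the rest. The intestine-marked livers, at 8.37 to 11 CPM, lay inside the range of the other 10. The genotype means were 10.1 ± 1.27 CPM in tert-/- (SD, n = 3), 13.6 ± 4.46 CPM in tert+/- (SD, n = 5) and 10.5 ± 2.89 CPM in tert+/+ livers (SD, n = 5). The log2 fold changes were -0.05 (SE 0.30) in tert-/- and 0.38 (SE 0.26) in tert+/-, with edgeR adjusted p-values of 1 and 0.9999. Without tert+/- liver 2 the tert+/- value was 0.16.

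ENSDARG00000058730 had 2.95, 33.5 and 22.9 CPM in tert-/- livers 1 to 3. It had 44.1, 15.3, 3.54, 20.5 and 16.1 CPM in tert+/- livers 1 to 5, and 19.8, 15.0, 18.9, 17.0 and 1.69 CPM in tert+/+ livers 1 to 5. The lowest liver of each genotype was the intestine-marked one. Their mean was 2.72 CPM, against 22.3 CPM in the other 10 livers, which is 8.19-fold lower, and the lowest other liver lay 4.25-fold above the highest of the 3. Within a genotype the gap was 9.57-fold in tert-/-, 6.78-fold in tert+/- and 10.5-fold in tert+/+. The heart-marked livers, at 16.1 and 19.8 CPM, lay inside the range of the 8 others. This was the direction of the hepatocyte list, of which fabp10a, a fatty acid carrier of fish hepatocytes, had 1888 to 3506 CPM in the intestine-marked and 14080 to 34124 CPM in the other livers.

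Without the intestine-marked livers the tert-/- livers had 33.5 and 22.9 CPM of ENSDARG00000058730, against 15.0 to 19.8 CPM in the 4 tert+/+ livers. The groups did not overlap in TMM-normalised CPM, which held in this direction for 4.31% of all genes tested when the same 6 livers were compared. In RPKM on raw totals, without TMM scaling, they overlapped, with 9.87 in tert-/- liver 3 and 10.07 in tert+/+ liver 1. The log2 fold change was 0.68 (SE 0.41) there, and 0.45 (SE 0.85) over all 13 livers, with edgeR adjusted p-values of 0.9998 and 1. Over 12 livers, without tert-/- liver 2, the sign turned and the value was -0.15. In tert+/- the log2 fold change was 0.46 (SE 0.75, edgeR adjusted p = 0.9999), and -0.064 without tert+/- liver 1, which had the highest level of all. Without the intestine-marked livers tert+/- overlapped tert+/+, where 0.812% of genes lay higher in every tert+/- liver.

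Per length, the balance of the pair turned over. With levels as RPKM on the total of each liver, ENSDARG00000012369 made up 83.4%, 79.4% and 87.0% of the RDH10 signal in the tert-/-, tert+/- and tert+/+ liver with intestine markers, and 24.5% to 65.1% in the other 10. The sum of both genes overlapped on this measure through a single liver. It was 11.4, 6.65 and 7.27 RPKM in the intestine-marked livers and lay between 6.24 and 24.1 RPKM in the others. The lowest value was that of tert+/+ liver 4, where mitochondrially encoded genes took 54.7% of the counts. The rest of the others had 13.97 RPKM or more. RPKM has no TMM scaling, and the TMM factor of tert+/+ liver 4 was the lowest of all, at 0.489. The sum in TMM-normalised CPM is not given here. Close paralogs may share reads, and the counts do not show how such reads were assigned.

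CYP26A1, which breaks retinoic acid down, was at the limit of detection outside the intestine-marked livers. It had 2.74, 0.0466 and 0.0573 CPM in tert-/- livers 1 to 3, which are 121, 1 and 2 counts. It had 1, 1, 639, 0 and 1 counts in tert+/- livers 1 to 5, with 28.6 CPM in liver 3, and 0, 0, 1, 0 and 1306 counts in tert+/+ livers 1 to 5, with 36.7 CPM in liver 5. All 10 livers without intestine markers thus lay under the level of 3 counts, the limit that a count of 0 allows, which was 0.0630 to 0.288 CPM in these libraries. The 3 intestine-marked livers held 99.6% of the summed CPM. Summed counts were 2066 in them and 7 in the other 10.

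The intestine-marked tert-/- liver had less CYP26A1 than the other 2. Its 2.74 CPM (95% Poisson interval 2.28 to 3.28) compared with 28.6 CPM (26.4 to 30.9) in the tert+/- and 36.7 CPM (34.7 to 38.7) in the tert+/+ liver. Per percent of intestine counts this was 0.451 CPM in the tert-/-, 6.57 CPM in the tert+/- and 5.75 CPM in the tert+/+ liver, while ALDH1A2 stood at 20.3, 15.5 and 14.3 CPM per percent in the same livers. These quotients set TMM-normalised CPM over a percent of raw counts, and the TMM factors were 1.54, 0.928 and 1.35 in the same order. The order of the tert+/- and tert+/+ livers, and the gaps for ALDH1A2, thus depend on the scaling. The ratio of ALDH1A2 to CYP26A1 in RPKM was 30.9 in the tert-/- liver, against 1.62 in the tert+/- and 1.70 in the tert+/+ liver. With 1 intestine-marked liver per genotype this has no replicate check and no test, and the genotype and the piece of tissue cannot be told apart. Intestine markers differed among these livers too. FABP2, the intestinal fatty acid carrier, had 5535 CPM in the tert-/- liver, against 9702 CPM in the tert+/- and 9200 CPM in the tert+/+ liver. The intestine list as a whole went another way, with 6.08%, 4.35% and 6.38% of the counts in the same order, lowest in the tert+/- liver. FABP6, a bile acid carrier of the ileum in mammals, had 3.97, 1.92 and 6.57 CPM in that order. Exocrine pancreas genes took 0.769% of the counts of the tert-/- liver and 0.0515% or less in all others. These markers were picked from the intestine and pancreas lists after their values were seen, and their part in the level of CYP26A1 was not tested.

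By genotype, the log2 fold change of CYP26A1 was -2.93 (SE 3.11) in tert-/- and -0.36 (SE 2.35) in tert+/-, with edgeR adjusted p-values of 1 and 0.9999. These values rest on 1 liver of each genotype. Without tert-/- liver 1 the tert-/- value was -7.01, and without the intestine-marked livers the gene did not pass the filter and had no value.

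CYP26B1, the second degrading enzyme, was low in every liver. It had 0.295, 0.605 and 0.774 CPM in tert-/- livers 1 to 3, then 0.475, 0.556, 0.269, 1.57 and 1.34 CPM in tert+/- livers 1 to 5, and 2.16, 0.458, 0.673, 0.671 and 0.478 CPM in tert+/+ livers 1 to 5. These are 6 to 64 counts a liver. The intestine-marked livers, at 0.269 to 0.478 CPM, reached into the range of the other 10, at 0.458 to 2.16 CPM. Their mean was 0.347 CPM, against 0.929 CPM in the other 10, which is 2.68-fold lower. Within a genotype the gap was 2.34-fold in tert-/-, 3.67-fold in tert+/- and 2.08-fold in tert+/+. The intestine-marked values rest on 6 to 17 counts a liver. The heart-marked livers had 1.34 and 2.16 CPM, and of the remaining 8 only tert+/- liver 4, at 1.57 CPM, came between them. The log2 fold change was -0.67 (SE 0.70) in tert-/- and -0.06 (SE 0.60) in tert+/-, with edgeR adjusted p-values of 1 and 0.9999. Leaving out the heart-marked tert+/+ liver 1 gave -0.02 in tert-/- and 0.59 in tert+/-.

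**Figure D3:**
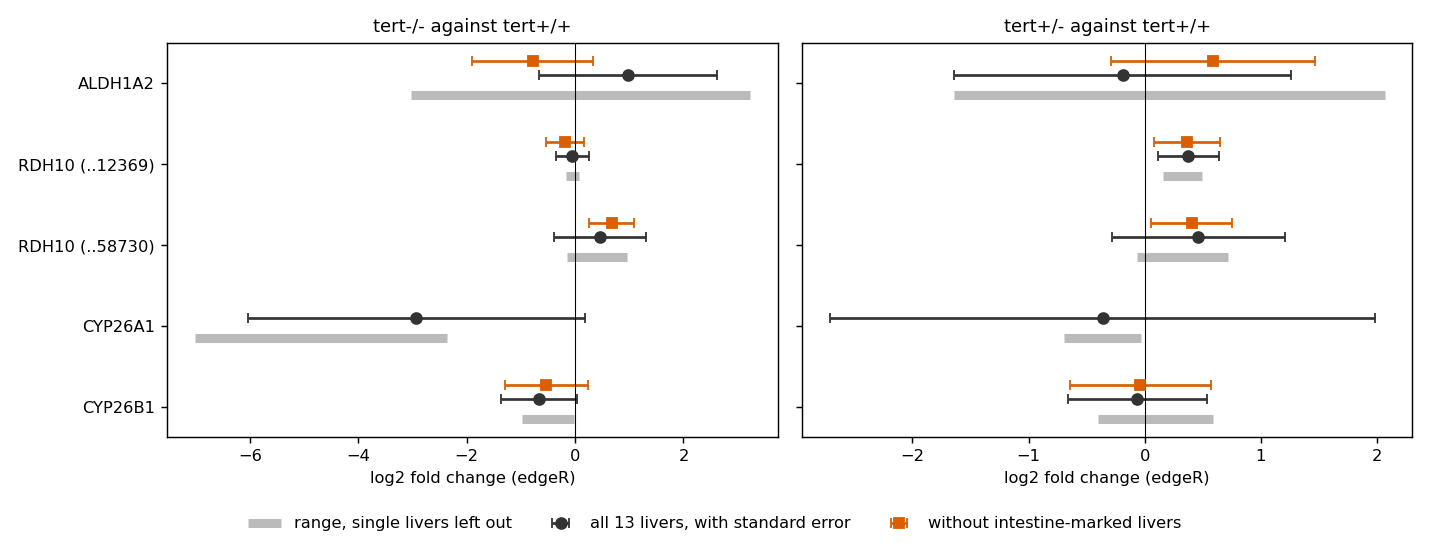
Log2 fold changes of the 5 genes from edgeR, for tert-/- (left) and tert+/- (right) against tert+/+. Black points show all 13 livers and orange squares the 10 without intestine markers, both with standard errors, and grey bars show the range of values with single livers left out. Neither comparison passed the threshold for any of the 5 genes, and ALDH1A2 changed sign without the intestine-marked livers.

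Within a liver, levels per length gave different leaders. ALDH1A2 came first in all 3 intestine-marked livers, at 69.6 RPKM in the tert-/-, 22.9 RPKM in the tert+/- and 44.8 RPKM in the tert+/+ liver, which is 83.4%, 52.3% and 57.0% of the summed RPKM of the 5 genes. CYP26A1 was the runner-up in the tert+/- and tert+/+ livers, at 14.1 and 26.3 RPKM, and RDH10 ENSDARG00000012369, at 9.54 RPKM, in the tert-/- liver. In the other 10 livers an RDH10 gene led, ENSDARG00000058730 in 7 and ENSDARG00000012369 in 3, and ALDH1A2 made up 1.58% to 26.7% of the sum. CYP26B1 came next to last and CYP26A1 last in all 10. ALDH1A2 exceeded the RDH10 pair 6.08-fold, 3.44-fold and 6.17-fold in the tert-/-, tert+/- and tert+/+ liver with intestine markers and was 0.0161 to 0.375 of it in the others. The top value was that of both heart-marked livers, at 0.373 in tert+/- liver 5 and 0.375 in tert+/+ liver 1. The sum of both CYP26 genes was 2.37, 14.2 and 26.5 RPKM in the tert-/-, tert+/- and tert+/+ liver with intestine markers, and 0.0846 to 0.681 RPKM elsewhere.

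**Figure D4:**
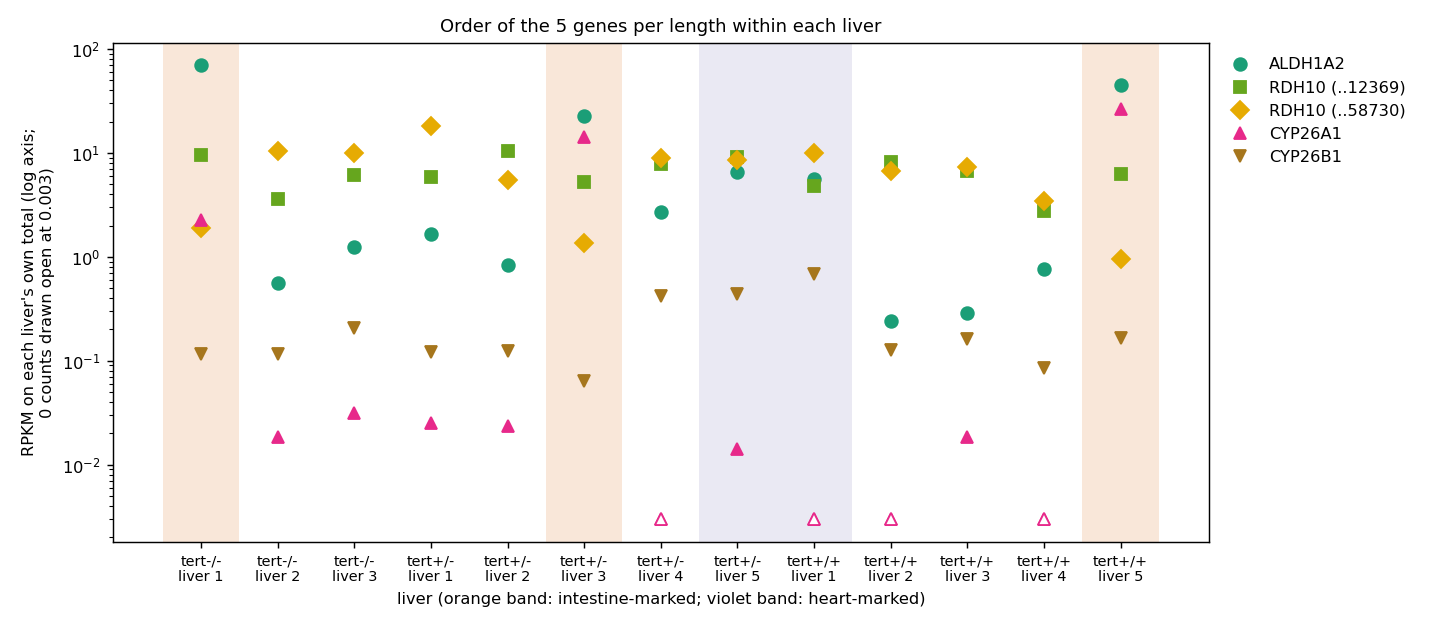
RPKM of the 5 genes in each liver, on a log axis, with open symbols at 0.003 for 0 counts. Orange bands mark the 3 intestine-marked and violet bands the 2 heart-marked livers. ALDH1A2 led in the orange bands, with 22.9 to 69.6 RPKM, and CYP26A1 lay below all other genes in the remaining livers.

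No other gene of the pathway passed the test between genotypes. Of 34 tested genes from 5 lists (other makers, other degraders, binding proteins, receptors and receptor partners), edgeR called 0 in either comparison, where the background was 0%. Among 12 other makers 4 were higher and 8 lower in tert-/- (median log2 fold change -0.10), and 6 were higher and 6 lower in tert+/- (median -0.02). This list also holds both DHRS3 genes, whose enzyme turns retinaldehyde back into retinol, so its tally does not describe making alone. Of 8 receptors 3 were higher and 5 lower in tert-/- (median -0.26), and 4 and 4 in tert+/- (median 0.01). Of 10 receptor partners 1 was higher and 9 lower in tert-/- (median -0.26), and 2 and 8 in tert+/- (median -0.22). The medians over all genes tested were -0.01 in tert-/- and -0.03 in tert+/-. The 3 other degraders had medians of 0.35 in tert-/- and 0.22 in tert+/-. The binding proteins CRABP1 and CRABP2, which carry retinoic acid inside cells, were near 0, with 17 counts or fewer in any liver for each of their 4 genes, and 1 of the 4 was tested.

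NRIP1 (ENSDARG00000068965), a corepressor that binds retinoid receptors, was the only 1 of the 34 pathway genes at an unadjusted edgeR p under 0.05, and it was so in both comparisons. Of all 16376 genes tested, 189 in tert-/- and 218 in tert+/- were under it too. NRIP1 is described here because its p was the smallest of the pathway genes, so its p is no independent evidence. It had 9.84, 6.10 and 8.86 CPM in tert-/- livers 1 to 3. It had 9.54, 5.05, 8.77, 8.39 and 10.4 CPM in tert+/- livers 1 to 5, and 20.3, 19.3, 19.6, 16.2 and 8.88 CPM in tert+/+ livers 1 to 5. In TMM-normalised CPM all tert+/+ livers but the intestine-marked one lay above every mutant liver. The TMM factor of tert+/+ liver 4 was 0.489, and positions without TMM scaling are not given here. The log2 fold change was -1.03 (SE 0.33) in tert-/- and -0.999 (SE 0.28) in tert+/-. In the edgeR fit across all genes the unadjusted p was 0.00849 in tert-/- and 0.00341 in tert+/-, and the adjusted p was 1 and 0.9999. Without the intestine-marked livers the 2 values were -1.33 (SE 0.33) and -1.21 (SE 0.26), with adjusted p-values of 0.9998 and 0.9997. In those 10 livers both mutant genotypes lay below tert+/+ with no overlap in TMM-normalised CPM, as did 3.46% of the genes tested in tert-/- and 0.751% in tert+/-. Both comparisons share the tert+/+ livers. The difference did not pass the correction over the genes tested.

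Across livers, some of the pathway genes lay apart in the intestine-marked livers, in either direction. Of the 34 genes 4 were higher and 8 lower in all 3 intestine-marked livers than in each other liver, against a background of 16.6% and 12.3%. RDH8 (ENSDARG00000028048), a retinol dehydrogenase and 1 of the 4 higher genes, had 3.11 CPM in the tert-/-, 4.03 in the tert+/- and 9.05 in the tert+/+ liver with intestine markers, and 0.0374 to 0.415 CPM in the other 10. RDH14 (ENSDARG00000039299), another retinol dehydrogenase, had 3.54 to 8.40 against 0.480 to 2.49 CPM. DHRS3 (ENSDARG00000044803), which turns retinaldehyde back into retinol, had 22.5, 18.6 and 13.7 CPM against 1.66 to 7.22 CPM. The alcohol dehydrogenase adh8b had 300 CPM in the tert-/-, 309 in the tert+/- and 475 in the tert+/+ liver, against 144 to 243 CPM. The lower ones included adh8a, at 134 to 203 against 1031 to 1775 CPM, DHRS9, at 136 to 190 against 221 to 593 CPM, and ALDH8A1, which oxidises 9-cis retinaldehyde in mammals, at 35.1 to 68.7 against 89.2 to 197 CPM. Per length adh8a was above ALDH1A2 in every liver, with 68.6 to 151 RPKM in the intestine-marked and 278 to 934 RPKM in the other livers.

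**Figure D5:**
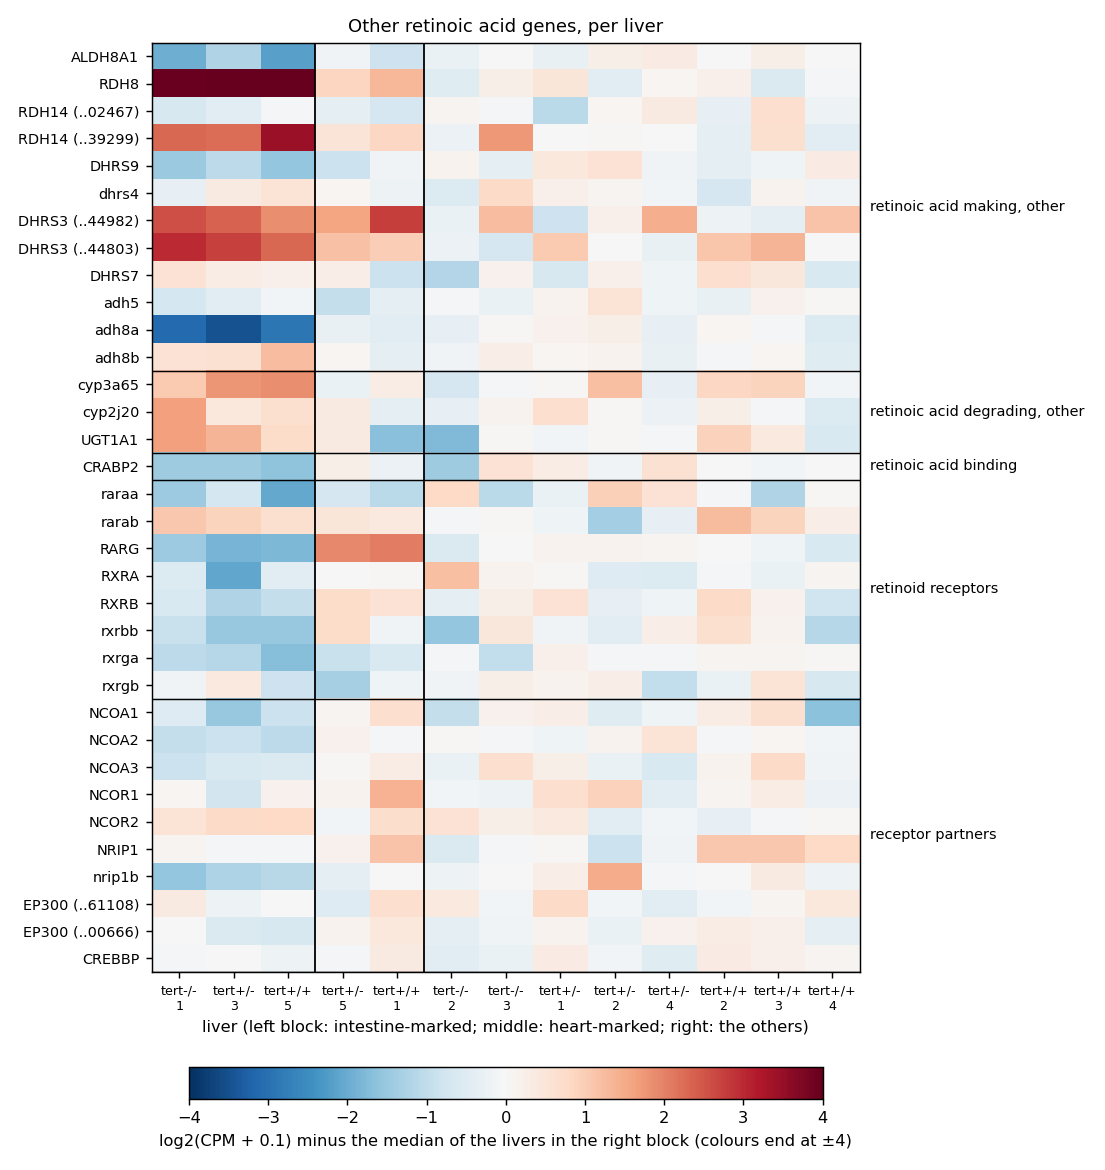
The 34 tested genes of the 5 pathway lists, as log2(CPM + 0.1) in each liver minus the median of the 8 livers without intestine or heart markers. RDH8 is the deepest red in the 3 intestine-marked livers on the left, adh8a the deepest blue, and RARG (0.269 to 0.386 CPM there) is redder in the 2 heart-marked than in the other livers, at 4.98 and 5.39 CPM.

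Among the other degraders, cyp3a65, a fish enzyme of the CYP3A family that acts on many substrates, had 356 to 622 CPM in the intestine-marked and 109 to 396 CPM in the other livers, with overlap. Its RPKM, taken on raw library totals without TMM scaling, did not overlap, at 205 to 315 against 29.2 to 129. The same held for UGT1A1, which conjugates bilirubin and other small molecules. It had 495 to 927 against 88.2 to 562 CPM, and 93.6 to 200.4 against 9.19 to 83.8 RPKM. Within a gene the length is constant, so CPM and RPKM differ here in library scaling only. The gap in RPKM is thus no separate result. CYP26C1 had 0 or 1 count in each liver. Among the receptors, RARG (ENSDARG00000034117) had 0.386 CPM in the tert-/-, 0.269 in the tert+/- and 0.281 in the tert+/+ liver with intestine markers, against 0.767 CPM or more in every other. It had 4.98 and 5.39 CPM in the heart-marked tert+/- and tert+/+ livers, against 0.767 to 1.38 CPM in the remaining 8. In the heart-marked pair 3 of the 34 genes were higher than in each of the 8, RARG, RDH8 and DHRS3 ENSDARG00000044982, against 10.5% of all genes tested. The receptors highest per length were rxrgb, rxrga and RXRA (ENSDARG00000057737), and of these rxrga was lower in the intestine-marked livers, at 6.57 to 10.4 against 10.8 to 24.7 CPM. Among the receptor partners NCOA2, a coactivator, was lower in them, at 26.4 to 30.7 against 49.5 to 80.9 CPM, and so was nrip1b, at up to 12.3 against 20.3 to 75.0 CPM.

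The genes whose pattern was most like that of each enzyme were ranked by Pearson's r of log2 CPM, among genes with a mean of at least 1 CPM. Points share libraries and depth, so r is given as a description. Over 13 livers the 5 most like ALDH1A2 were NT5E, a nucleotidase of the cell surface (r = 0.983), PLEKHG5, MCM3, LDHA and si:ch211-222l21.1 (r = 0.956). Of 12721 genes compared, 113 had an r above 0.9 with ALDH1A2, so these 5 are the top of a broad set. NT5E was first again over the 10 livers without intestine markers (r = 0.959), ahead of s100a10b, ANXA2, GSTM3 and ANXA1. It had 12.3 to 15.6 CPM in the intestine-marked, 3.80 and 4.33 CPM in the heart-marked and 0.860 to 2.61 CPM in the remaining livers. NT5E was chosen by its r with ALDH1A2 over these livers, so its middle level in the heart-marked pair largely follows from that choice.

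RDH10 ENSDARG00000058730 was most like ENSDARG00000099362 (r = 0.973), CLDN2, a claudin of tight junctions, shisa10.3, ACSBG1, an acyl-CoA synthetase, and nav2b over 13 livers, all of them lower in the intestine-marked livers. CLDN2 had 2.47 to 5.56 CPM there, against 28.9 to 106 CPM elsewhere. Of 12721 genes compared, 277 had an r above 0.9 with this RDH10 gene, so the match is not particular to these 5. By ranks their correlation was lower, with Spearman's rho of 0.643 to 0.879. Over the 10 livers without intestine markers none of these 5 came among the closest, which included pitpnc1b (r = 0.875), DNAL4, ftr99 and laptm5. Spearman's rho of the genes named for these 10 livers was 0.382 to 0.794. For RDH10 ENSDARG00000012369 the closest over 13 livers were KDM5B (r = 0.873), TMEM214, SF3A3, surf4 and TXNL1, and over 10 livers JMJD6 (r = 0.928), SINHCAF, SDF4, TMEM214 and ahsg1, with TMEM214 in both sets.

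For CYP26A1, which had counts to speak of in 3 livers, 702 of 12721 genes had an r above 0.9, so the 5 closest (CHCHD7, si:ch211-160b11.4, crygm3, PEPD and sox21a) share little more than a high level in those livers. CYP26B1 was most like EFEMP2, a protein of the extracellular matrix (r = 0.930), ABCC9, a subunit of a potassium channel in muscle, STOX2, GNB5 and FAM131C over 13 livers, and LAMB1, a laminin chain of basement membranes (r = 0.909), ABCC9, TRPV4, FOS and CD82 over 10. ABCC9 was in both sets, with 0.806 to 1.32 CPM in the intestine-marked, 17.5 and 25.5 CPM in the heart-marked and 2.42 to 10.8 CPM in the remaining livers.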

How the data were processed

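Liver RNA of 13 fish was sequenced (TruSeq, 1 library a fish). Genotypes came from the labels, replicate numbers follow accession order and pair nothing, and the labels give no batch. The authors deposited counts per gene. Their processing notes list the build GRCz10 with featureCounts 1.4.6-p4, STAR 2.4.1d and bcl2fastq 1.8.4, where the study's methods describe kallisto instead. The authors also deposited RPKM. Their divisor was the 13 library totals taken in turn down the genes, since the implied gene length varied with a median CV of 0.00188% on that reading and 27.8% on each library's own total (2866 genes with at least 200 counts in every liver). RPKM was therefore recomputed from counts, own totals and the implied lengths.

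Counts were fitted with edgeR 4.0.16 in R 4.3.3 (TMM, its filter on low counts, 1 quasi-likelihood fit of all 13 livers with a group for each genotype, Benjamini-Hochberg over the 16376 genes tested, threshold 0.05). The common dispersion was 0.617. Fold changes are log2, tert-/- or tert+/- over tert+/+. CPM are counts scaled by the TMM-normalised library size, and like genes used log2 CPM with a prior count of 2. Intervals are 95% exact Poisson intervals, and the limit for 0 is 3 counts. The totals of 17801374 to 37309651 counts set this precision. The fit was run on simulated counts, where set fold changes were recovered at a lowered dispersion. Its power at the dispersion of these data is not given here, so the absence of called genes does not show that genotypes were alike. Alternatives were DESeq2 1.42.0, RLE scaling, no filter, 2 genotypes only, no intestine-marked livers, the intestine share as a covariate, limma 3.58.1 on log2(RPKM + 1), and single livers left out. Leaving out the heart-marked livers (over 0.1% heart muscle counts) was added after the data were seen. Python 3.11.15 with scipy 1.17.1 gave values per liver.

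The 5 genes, the lists and the marker cut-off of 1% were chosen with earlier results of these data known. Named genes are the 5, the 3 highest by RPKM and the 3 with the smallest p of each pathway list, and the 5 like genes of each, of which 1 is not reported here. Other pathway genes were named for their position in marked livers, after their values were seen, as were single markers. Symbols were paired with 26269 of 32105 identifiers, and some are those of the matching human gene, so both RDH10 genes are told apart by identifier only. Sequences and coordinates were not used here. No library was a copy of another (chi-square over degrees of freedom of 83.6 or more in all 78 pairs). Nothing says whether libraries were prepared in separate runs, so p-values measure the spread between these fish and their libraries.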

Additional observations from a re-analysis of the deposited data

Results flagged for a closer look

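Within the tert+/- and tert+/+ groups, with 5 livers each, the extreme liver lay farther from the next than Dixon's 95% limit allows in 7 of 10 cases. Chance alone passes this limit in about 1 of 20 groups where values have a normal spread. The values here were CPM and not log CPM, so that rate need not hold for them. The share of all genes tested that passes this limit is not given here, so the count says nothing particular about the 5 genes. CYP26A1 passed the filter on low counts only through the livers where it was high, so its cases follow from that. The 7 are given as a description, since most repeat the division by intestine markers described above and the cases of 1 liver are not independent. The 3 tert-/- livers were not put to this test.

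Of these 7, 5 were intestine-marked livers. ALDH1A2 had 67.5 CPM in tert+/- liver 3, against 2.63 to 14.2 CPM in the other 4, and 91.2 CPM in tert+/+ liver 5, against 0.619 to 12.6 CPM. CYP26A1 had 28.6 CPM in tert+/- liver 3 and 36.7 CPM in tert+/+ liver 5, against 0.0505 CPM or less in the others of both groups. RDH10 ENSDARG00000058730 had 1.69 CPM in tert+/+ liver 5, below 15.0 to 19.8 CPM in the other 4.

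The remaining 2 had no intestine markers. RDH10 ENSDARG00000012369 had 21.2 CPM in tert+/- liver 2, above 10.2 to 13.3 CPM in the other 4. CYP26B1 had 2.16 CPM in the heart-marked tert+/+ liver 1, above 0.458 to 0.673 CPM in the other 4.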

How the results depend on the processing

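Of the alternatives for the 2 counts of called genes, 43 gave 0 genes and 1 differed, DESeq2 with 3 genes in tert-/- against tert+/+. No setting brought a log2 fold change of the 5 genes or of NRIP1 past the threshold, and DESeq2 gave no p for ALDH1A2 and CYP26A1. Of these values 25 changed sign and 229 did not. For tert+/- against tert+/+, ALDH1A2 stood at 0.59 without the intestine-marked livers, 0.31 with the intestine share as a covariate, 0.39 by limma and 1.38 without the intestine-marked and heart-marked livers. CYP26A1 stood at 0.80 with the covariate. CYP26B1 stood at 0.35 without the heart-marked livers and 0.57 without both kinds. For tert-/- against tert+/+, ALDH1A2 stood at -0.78 without the intestine-marked livers and -0.44 with the covariate, RDH10 ENSDARG00000012369 at 0.11 by limma, and CYP26B1 at 0.22 without both kinds. The cause was not tested.

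With single livers left out, the ranges for tert-/- were -3.03 to 3.23 (ALDH1A2), -0.16 to 0.065 (RDH10 ENSDARG00000012369), -0.15 to 0.97 (RDH10 ENSDARG00000058730), -7.01 to -2.37 (CYP26A1), -0.98 to -0.02 (CYP26B1) and -1.18 to -0.84 (NRIP1). For tert+/- they were -1.64 to 2.07, 0.16 to 0.49, -0.064 to 0.71, -0.69 to -0.04, -0.41 to 0.59 and -1.16 to -0.86 in the same order of genes, and both counts of called genes stayed at 0. CYP26A1 did not pass the filter in 2 of these 13 fits, with 2 genotypes only, or without the intestine-marked livers. No paired analysis was possible because the replicate numbers follow accession order. In livers with 0 to 2 counts, CYP26A1 could not be told from 0 at this depth.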
